A study of Mus musculus with 8 samples.

Results

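The genes described here are the collagen chain genes of the mouse, taken as every row of the count table whose symbol has the form Col, a number, a and a number. There were 44 of them among 25509 genes, 11 for fibrillar collagens, 9 for network-forming collagens, 9 for FACITs (collagens that attach to the surface of fibrils and have interrupted triple helices), 4 for transmembrane collagens, 6 for the beaded-filament collagen VI, and 5 in none of these classes. RNA was measured in 8 libraries from the lungs of 4 wild-type mice of strain C57Bl6/J, numbered 2, 7, 8 and 10. From each lung the cells negative for CD45, CD326 and CD31 were flow sorted into a CD249pos and a CD249neg fraction of equal cell number, giving 4 libraries per group. CD249 is the cell-surface peptidase encoded by Enpep. No treatment is named, the age and sex of the mice are not given in the sources used here, and both groups share strain, genotype and tissue. The comparison asks which collagen genes differ between the CD249pos and the CD249neg cells sorted from the same lung.

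Collagens are trimers of chains that wind into a triple helix. Fibrillar collagens I, III and V co-assemble into the fibrils that carry tension, FACITs coat those fibrils, collagen IV forms the sheet of the basement membrane, collagen VI makes a microfibril network around cells, and transmembrane collagens sit in the plasma membrane with the helix outside. In the lung, fibroblasts are the main makers of interstitial collagen, while the alveolar basement membrane receives collagen IV from several cell types, among them endothelium and epithelium.

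Library totals ran from 23011383 to 31906414 counts. Enpep stood at 7.54, 5.99, 5.13 and 17.3 CPM (counts scaled by the TMM-adjusted library total, the unit of all levels here) in CD249neg libraries of mice 2, 7, 8 and 10 and at 239.6, 221, 175 and 329 CPM in CD249pos libraries, in the direction of the labels. The summed level of 9 fibroblast markers (Pdgfra, Dcn, Tcf21 and others) was 3071 to 5024 CPM in CD249neg and 7179.5 to 9771 CPM in CD249pos libraries. Of the 9, 6 rose and 3 did not pass edgeR's test. These 3 were Dcn, Vim and Thy1, with log2 fold changes of 0.39, -0.23 and -1.35 (adjusted p = 0.462, 0.127 and 0.137). The sum of 12 endothelial markers, none of them at 0, was 13646 to 17894 CPM in CD249neg and 4284 to 8047 CPM in CD249pos libraries, and all 12 fell. The endothelial sum was thus above the fibroblast sum in every CD249neg library, although the sort selected against CD31, the product of Pecam1, which stood at 2031, 1524, 1612 and 1499 CPM in CD249neg and 959, 448, 581 and 457 CPM in CD249pos libraries. Ptprc, which encodes CD45, stood at 58.2, 120.0, 199 and 113 CPM and 60.9, 43.4, 95.6 and 52.6 CPM. Smooth muscle markers summed to 170.5 to 736 and 875 to 1737 CPM, pericyte markers to 77.4 to 123 and 300.0 to 439 CPM, and mesothelial markers to 49.0 to 172 and 8.84 to 25.1 CPM. Epithelial markers summed to 368 to 937 and 539.7 to 8425 CPM, leukocyte markers to 2498 to 4344 and 1850.4 to 4204 CPM and red cell and platelet markers to 99.5 to 745 and 25.9 to 216 CPM. Chondrocyte markers, of which 1 was at 0 throughout, summed to 13.3 to 20.1 and 12.3 to 28.1 CPM, and glial markers to 1.05 to 7.85 and 1.58 to 5.98 CPM. In such bulk libraries fewer cells of a type and less RNA per cell cannot be told apart, and the part of these other cells in the collagen differences was not tested.

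Most collagen genes that could be tested were higher in the CD249pos fraction. The transmembrane collagens Col13a1, Col17a1 and Col23a1 rose by 3.05 to 5.21 on the log2 scale, the main collagen VI chains by 2.23 to 2.72, and the chains of collagens I, III and V by 1.26 to 1.79. Col4a1 and Col4a2, the most abundant network chains, did not pass the test, at -0.09 and -0.10. Of the 44 genes, 34 passed the filter on low counts, and 4 of these (Col2a1, Col24a1, Col9a3 and Col7a1) had fewer than 4 CD249neg libraries above its minimum of 0.334 CPM.

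By edgeR's quasi-likelihood test 22 of the 34 were called higher at an adjusted p under 0.05, where 16.9% of all 14524 genes tested were called higher. None was called lower (background 13.9%), none was lower at an unadjusted p under 0.05, and DESeq2 and limma-voom called 0 lower as well. At least 2-fold rises were called for 20 of the 34 (background 10.4%). The median log2 fold change of the 34 was 1.44, against -0.02 over all genes tested. The lowest CD249pos library lay above the highest CD249neg library for 17 of the 34 (background 17.8%). In CD249pos cells of all 4 mice 23 were higher (background 26.5%) and 4 were lower (background 3843 of 14524 genes). With mouse as a block 23 were called higher (background 19.3%) and 1 lower (background 17.1%): Col12a1 was added to the higher genes and Col4a4 became the lower one. In mice 2 and 10 alone 7 of 36 tested collagen genes were called higher (background 3.88%), and in mice 7 and 8 alone 24 of 34 (background 12.0%). With library size as the only scaling, which moved the median of all genes to -0.12, 21 were called higher (background 14.5%) and 0 lower (background 18.5%), with a median of 1.33 for the members.

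**Figure D1:**
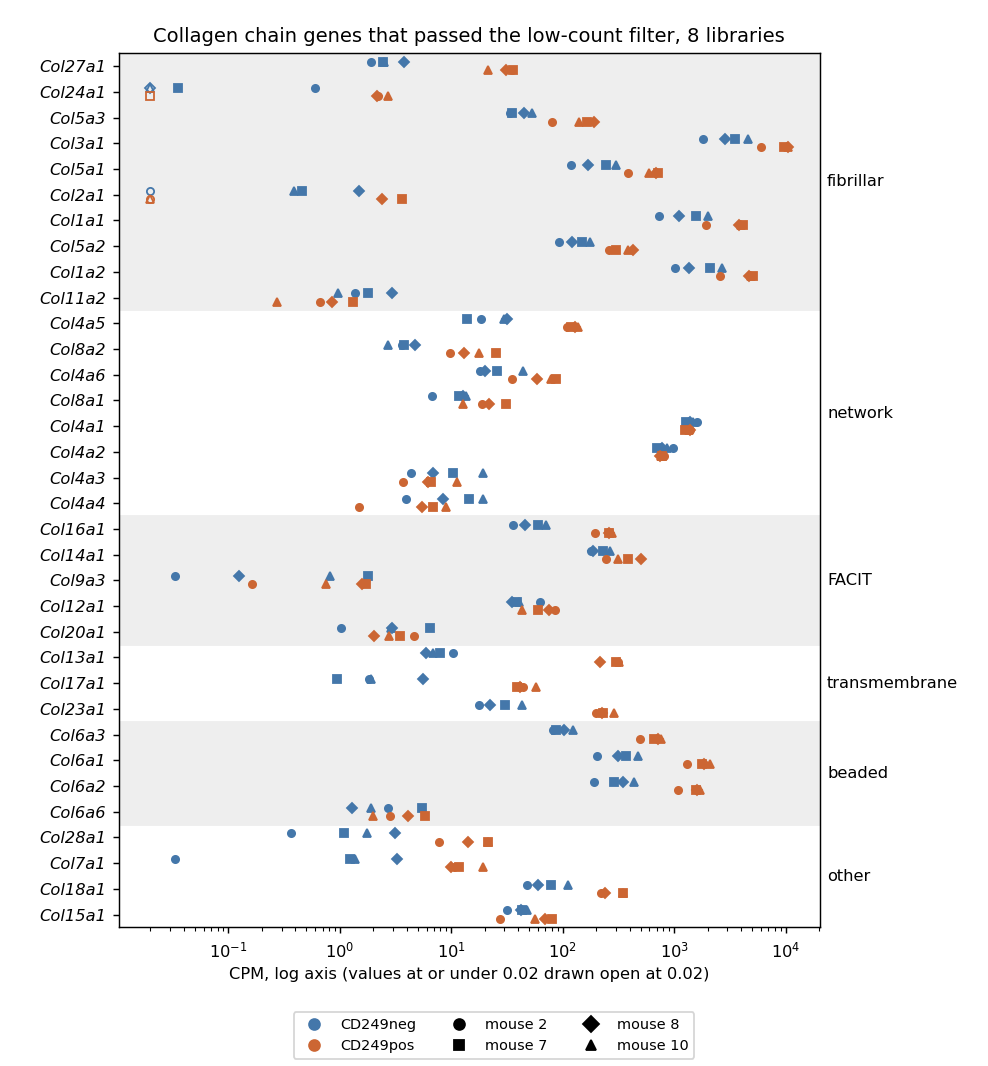
CPM on a log axis for the 34 collagen genes that passed the filter, by class and by size of the difference within a class; each symbol is 1 library, blue for CD249neg and orange for CD249pos, its shape giving the mouse. The 2 colours are far apart for Col13a1 (7.76 and 287 CPM on average) and overlap for Col4a1 and Col4a2.

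**Figure D2:**
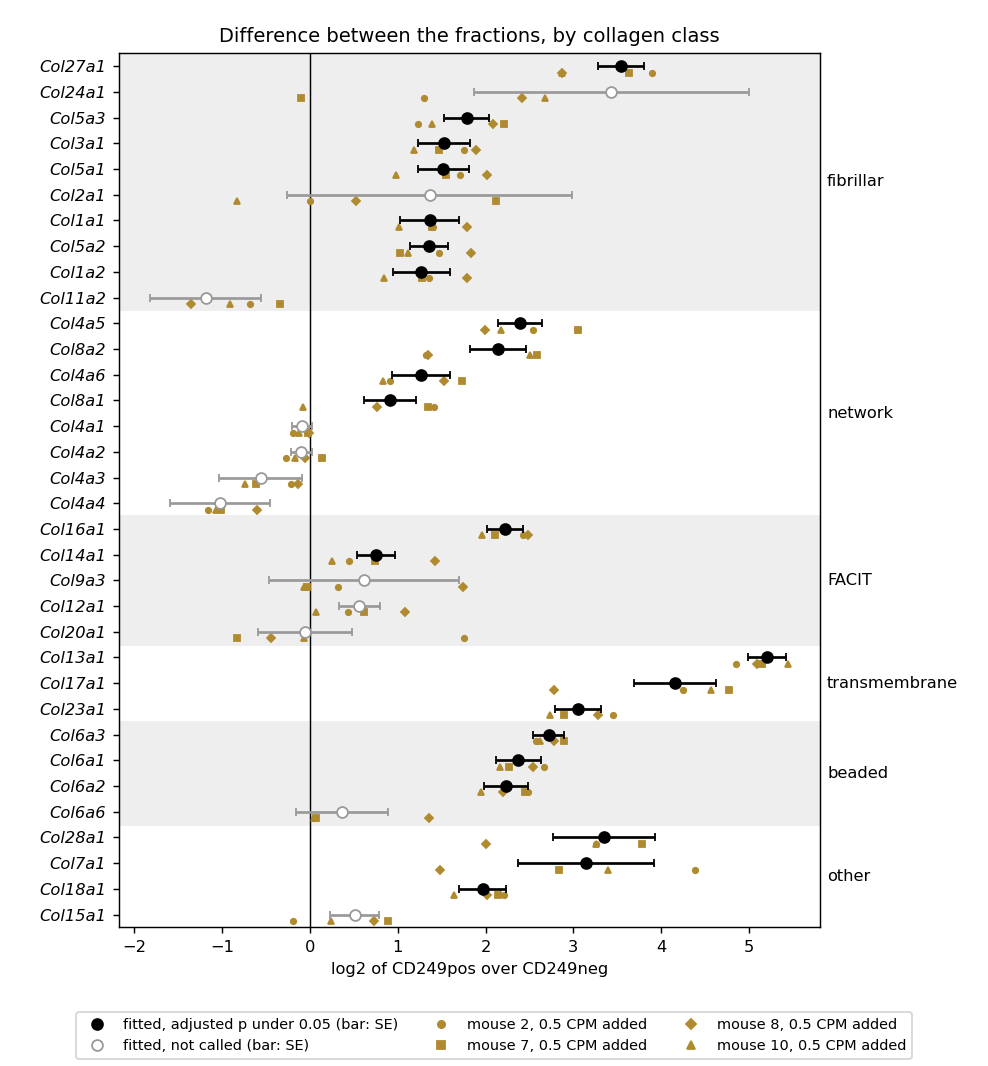
Log2 fold change of CD249pos over CD249neg for the same 34 genes, with bars of 1 SE; black points were called, open grey points were not, and the small symbols are the ratios within each of the 4 mice after adding 0.5 CPM. The 3 transmembrane genes lie at 3.05 or above. Below 0 in every mouse lie 4 of the 34 genes (Col11a2, Col4a1, Col4a3 and Col4a4), against 3843 of all 14524 genes tested.

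Among the fibrillar collagens 10 of 11 genes were tested, 7 rose and 3 did not pass, with a median of 1.44. Collagen I, the main tension-bearing collagen, is made of 2 kinds of chain. Col1a1 (ENSMUSG00000001506.10, chromosome 11, 94936224 to 94953042, GRCm38) stood at 728, 1580.1, 1099 and 1990.3 CPM in CD249neg libraries of mice 2, 7, 8 and 10 and at 1931, 4133, 3809 and 4015 CPM in CD249pos libraries (log2 fold change 1.36, SE 0.33, adjusted p = 0.0115). Col1a2 stood at 1008, 2115, 1354 and 2704 CPM and 2585, 5125, 4681 and 4864 CPM (log2 fold change 1.26, SE 0.33, adjusted p = 0.0148). For both genes the CD249pos library of mouse 2 was the lowest of its group and lay below the CD249neg library of mouse 10, yet within each mouse the CD249pos library was the higher one, by log2 ratios of 1.41, 1.39, 1.79 and 1.01 for Col1a1. Neither gene was called with mouse 7 left out (log2 fold change 1.35 for Col1a1 and 1.26 for Col1a2, adjusted p = 0.0602 and 0.0696) or with mouse 8 left out (1.23 and 1.11, adjusted p = 0.0829 and 0.0983). Those fits did not pair the fractions by mouse. In the fit to all libraries with mouse as a block both were called (1.4 and 1.32, adjusted p = 4.29e-05 and 0.000129). Col3a1, whose homotrimer mixes with collagen I in distensible tissue, stood at 1799.8, 3517, 2833 and 4592 CPM and 6049.9, 9723, 10528 and 10452 CPM with no overlap (log2 fold change 1.53, SE 0.30, adjusted p = 0.00354).

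Collagen V starts and limits the growth of collagen I fibrils. Col5a1 stood at 119, 244, 169.6 and 302 CPM in CD249neg and 388, 714, 687 and 598 CPM in CD249pos libraries (log2 fold change 1.52, SE 0.29, adjusted p = 0.00324). Col5a2 stood at 93.3, 148, 119.9 and 176 CPM and 258, 300.4, 430.0 and 382 CPM (log2 fold change 1.35, SE 0.22, adjusted p = 0.00123), and Col5a3, a less widespread chain of the same collagen, at 33.7, 35.1, 44.5 and 53.2 CPM and 80.0, 164, 191 and 139.9 CPM (log2 fold change 1.79, SE 0.26, adjusted p = 0.000626). None of the 3 chains overlapped between the fractions. Col27a1, a fibrillar collagen best known from cartilage, was present at a low level and showed the largest called difference of its class. It stood at 1.89, 2.42, 3.80 and 2.49 CPM and 34.9, 35.5, 30.8 and 21.4 CPM, an 11.6-fold difference (log2 fold change 3.54, SE 0.26, adjusted p = 1.33e-05). Col24a1, a fibrillar collagen close to Col27a1 in structure, was at 0.598, 0.0350, 0 and 0 CPM and 2.21, 0, 2.16 and 2.71 CPM, absent from the CD249pos library of mouse 7, and did not pass (log2 fold change 3.43, SE 1.57, adjusted p = 0.128). Without the CD249neg library of mouse 2 it was called (adjusted p = 0.0256), with a fitted difference that rests on CD249neg counts near 0. The cartilage collagens Col2a1 and Col11a2 stood under 4 CPM in every library and did not pass (1.36 and -1.19, adjusted p = 0.568 and 0.186). Limma-voom gave Col2a1 at -0.22.

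The network-forming collagens were divided. Of 9 genes 8 were tested, 4 rose and 4 did not pass, with a median of 0.41. Collagen IV is assembled from 6 chains. Col4a1 joins Col4a2 in nearly all basement membranes, Col4a3 joins Col4a4 and Col4a5 in lung alveoli and kidney glomeruli, and Col4a5 joins Col4a6 around smooth muscle. The 6 genes lie in 3 head-to-head pairs. Col4a1 (ENSMUSG00000031502.9, chromosome 8, 11198423 to 11312826, minus strand, GRCm38) stood at 1605, 1284, 1385 and 1479.7 CPM in CD249neg and 1398, 1259, 1375 and 1361 CPM in CD249pos libraries (log2 fold change -0.09, SE 0.12, adjusted p = 0.583). Its neighbour Col4a2 stood at 981, 706, 779 and 854 CPM and 811, 775, 749.9 and 760.3 CPM (log2 fold change -0.10, SE 0.12, adjusted p = 0.574). Over all 8 libraries Col4a1 ran from 1259 to 1605 CPM and Col4a2 from 706 to 981 CPM, and the fractions overlapped for both. The endothelial marker sum over the same libraries was 13646 CPM or more in CD249neg and 8047 CPM or less in CD249pos cells, and its part in the 2 values was not tested. The starts of both genes overlap by 22 bases on opposite strands, and without strand information reads there cannot be told apart.

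The X-linked pair rose. Col4a5 (ENSMUSG00000031274.16, chromosome X, 141475385 to 141689234) went from 18.4, 13.8, 31.9 and 29.8 CPM to 109, 119, 128 and 137 CPM, with no overlap and a 5.24-fold difference (log2 fold change 2.39, SE 0.25, adjusted p = 0.000102). Col4a6 went from 18.2, 25.6, 20.2 and 43.7 CPM to 34.8, 86.3, 59.1 and 78.0 CPM (log2 fold change 1.26, SE 0.33, adjusted p = 0.0162), and its CD249pos library of mouse 2 lay below the CD249neg library of mouse 10. Col4a6 was no longer called with mouse 7 or mouse 8 left out (1.06 and 1.19, adjusted p = 0.105 and 0.0809), in fits that did not pair the fractions. It was called with mouse as a block (1.27, adjusted p = 0.000515). Smooth muscle markers, 5 of 6 of which rose, summed to 359, 271, 170.5 and 736 CPM in CD249neg and 875, 1737, 879 and 1714 CPM in CD249pos libraries, and their part in the rise of this pair was not tested.

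The remaining pair, Col4a3 and Col4a4, was lower in CD249pos cells of every mouse, as were 3843 of all 14524 genes tested. Col4a3 stood at 4.35, 10.3, 6.88 and 19.3 CPM and 3.69, 6.55, 6.19 and 11.3 CPM and Col4a4 at 3.95, 14.4, 8.51 and 19.3 CPM and 1.48, 6.87, 5.45 and 8.94 CPM. Neither passed (-0.56 and -1.02, adjusted p = 0.407 and 0.205). Mouse 2 was lowest and mouse 10 highest in each fraction for both genes. With mouse as a block Col4a4 fell by 1.05 (adjusted p = 0.00674) and Col4a3 still did not pass (-0.46, adjusted p = 0.143). Exons of Col4a3 share 563 bases with the antisense gene C430014B12Rik. Of 10 epithelial markers 9 were tested, 2 rose, 1 fell and 6 did not pass, with a median log2 fold change of 0.22. The part of epithelial cells in the values of Col4a3 and Col4a4 was not tested. The bases between the starts of the 2 genes are shown because they are all that separates the pair. They lie at chr1:82586850-82586920, are given on the minus strand (RefSeq, GRCm38.p6), and hold none of the 4 motifs spelled out for the transmembrane genes. On that strand the first base lies next to Col4a3 and the last next to Col4a4.
Col4a4 to Col4a3: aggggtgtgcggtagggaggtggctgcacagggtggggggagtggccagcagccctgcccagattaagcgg

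**Figure D3:**
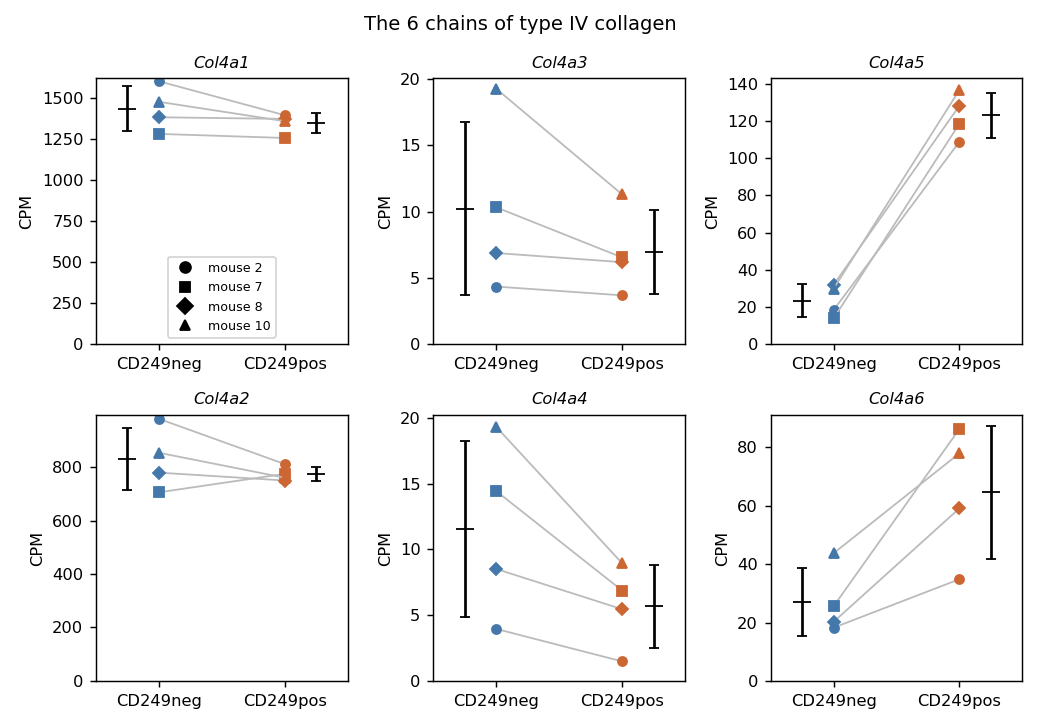
CPM of the 6 collagen IV chains in the CD249neg and CD249pos fraction of each mouse, joined by a line, with the mean and SD (n = 4) beside them; each column of panels is 1 head-to-head gene pair. Col4a1 runs from 1259 to 1605 CPM with the fractions overlapping, Col4a3 and Col4a4 are lower in CD249pos cells of all 4 mice, and Col4a5 and Col4a6 are higher in all 4.

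Collagen VIII forms short-chain networks in vessel walls. Col8a2 stood at 3.62, 3.78, 4.76 and 2.70 CPM in CD249neg and 9.81, 25.3, 12.9 and 17.6 CPM in CD249pos libraries (log2 fold change 2.14, SE 0.32, adjusted p = 0.000800). Col8a1 stood at 6.74, 11.8, 12.7 and 13.6 CPM and 18.7, 30.7, 21.97 and 12.8 CPM (log2 fold change 0.91, SE 0.29, adjusted p = 0.0403). In mouse 10 Col8a1 was no higher in the CD249pos library, and the call was lost in 11 of 20 other settings, with values of 0.63 to 0.98 and adjusted p from 0.0533 to 0.424. They include limma-voom, library size scaling, the loss of any of the CD249neg libraries of mice 2, 7 and 8 or the CD249pos libraries of mice 7 and 8, and the loss of both libraries of mouse 2, 7 or 8. Col8a1 was called with mouse as a block (0.89, adjusted p = 0.0300).

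FACITs are bound to the surface of fibrils. Of 9 FACIT genes 5 were tested, 2 rose and 3 did not pass. Col16a1, a collagen of fibril surfaces and of the cell border, went from 36.1, 60.6, 45.7 and 70.3 CPM to 197, 262, 257 and 276 CPM without overlap (log2 fold change 2.22, SE 0.21, adjusted p = 5.28e-05). Col14a1, a FACIT of collagen I fibrils, stood at 178, 228, 188 and 264 CPM and 243, 382, 505 and 315 CPM (log2 fold change 0.75, SE 0.22, adjusted p = 0.0256), with the CD249pos library of mouse 2 inside the CD249neg range. The Col14a1 call was lost in 8 of 20 settings, at 0.34 to 0.78 with adjusted p from 0.0501 to 0.50, among them the loss of any CD249neg library of mice 2, 7 and 8, of the CD249pos library of mouse 7 or 8, and of both libraries of mouse 7 or 8. Col14a1 was called with mouse as a block (0.72, adjusted p = 0.0119). Col12a1, its relative, stood at 62.8, 39.0, 35.4 and 40.8 CPM and 84.8, 60.0, 75.5 and 42.8 CPM and did not pass (log2 fold change 0.56, SE 0.23, adjusted p = 0.0987). A call was made with mouse as a block (0.55, adjusted p = 0.0237), without the CD249neg library of mouse 2 (0.79, adjusted p = 0.024), without the CD249pos library of mouse 10 (0.72, adjusted p = 0.0329), without both libraries of mouse 2 (0.65, adjusted p = 0.0407) and by the fit to mice 7 and 8 (0.89, adjusted p = 0.0138). Col20a1 and Col9a3 stood under 7 CPM in every library and did not pass (-0.06 and 0.62, adjusted p = 0.953 and 0.708), and the direction of Col20a1 turned in 8 settings.

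Transmembrane collagens had the highest median log2 fold change of the 6 classes, 4.16. All 3 that were tested rose, they did not overlap between the fractions, and they were called in each of the 20 other settings. Collagen XIII is found at sites of cell adhesion. Col13a1 (ENSMUSG00000058806.14, chromosome 10, 61838236 to 61979108, minus strand, GRCm38) stood at 10.4, 7.92, 5.88 and 6.87 CPM in CD249neg and 313, 299, 216 and 320.4 CPM in CD249pos libraries, a 36.9-fold difference (log2 fold change 5.21, SE 0.21, adjusted p = 8.98e-07). Collagen XVII belongs to the hemidesmosomes that anchor epithelium. Col17a1 (ENSMUSG00000025064.14, chromosome 19, 47646344 to 47692094, minus strand) stood at 1.83, 0.946, 5.59 and 1.92 CPM and 43.7, 39.1, 41.4 and 57.0 CPM, a 17.8-fold difference (log2 fold change 4.16, SE 0.47, adjusted p = 0.000162). The CD249neg library of mouse 8 was the highest of its group, and without it the log2 fold change was 4.84. In the same libraries Epcam, an epithelial marker, was at 5.61, 7.25, 9.55 and 7.41 CPM and 7.54, 2.27, 7.71 and 14.4 CPM in mice 2, 7, 8 and 10. The sum of 10 epithelial markers, most of it Sftpc in the CD249pos library of mouse 10 (7551 CPM), was 456, 368, 374 and 937 CPM and 539.7, 611, 966 and 8425 CPM. Epcam itself did not pass (log2 fold change 0.10, adjusted p = 0.894). Among the 9 epithelial markers tested, the surfactant genes Sftpc and Sftpb were called higher (3.59 and 3.77, adjusted p = 0.0313 and 0.0264). Each of these surfactant genes was higher in the CD249pos library of every mouse. Hopx was called lower (-1.31, adjusted p = 0.000827), and 6 markers, Epcam included, did not pass. Among CD249pos libraries Col17a1 was lowest in mouse 7 and highest in mouse 10, as were Epcam, Scgb1a1 and Ager. The other epithelial markers had other orders. Cdh1, Krt8, Krt18, Sftpc and Sftpb were lowest in mouse 2 and highest in mouse 10. Hopx and Foxj1 were lowest in mouse 7 and highest in mouse 2 and mouse 8. The part of epithelial cells in the Col17a1 difference was not tested. Col23a1 (ENSMUSG00000063564.13, chromosome 11, 51289920 to 51583918), a relative of Col13a1, stood at 17.9, 30.3, 22.5 and 43.0 CPM and 201, 228, 224 and 289 CPM, an 8.27-fold difference (log2 fold change 3.05, SE 0.26, adjusted p = 2.99e-05). Col25a1, a collagen first known from neurons, did not pass the filter and had at most 12 counts in a library.

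The bases just before the start of these 3 genes are shown because every tested gene of the class rose in every setting, with those of the collagen VI gene Col6a3 for comparison. They come from RefSeq on GRCm38.p6, run 5′ to 3′ on the gene's strand and leave out bases that GENCODE M21 places in an exon, so that the Col17a1 window is shorter. Capitals mark TATAAA (the TATA box), GGGCGG (the GC box), CCAAT or TGANTCA (the AP-1 site) on either strand. The windows are chr10:61979109-61979358 (minus strand) for Col13a1, chr19:47692095-47692292 (minus) for Col17a1, chr11:51289670-51289919 (plus) for Col23a1 and chr1:90843972-90844221 (minus) for Col6a3.
Col13a1: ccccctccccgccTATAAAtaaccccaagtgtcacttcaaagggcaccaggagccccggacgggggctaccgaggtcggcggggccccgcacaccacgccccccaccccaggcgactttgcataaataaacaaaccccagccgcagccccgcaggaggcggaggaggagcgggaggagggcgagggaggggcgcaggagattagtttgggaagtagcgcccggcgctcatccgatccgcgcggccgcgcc
Col17a1: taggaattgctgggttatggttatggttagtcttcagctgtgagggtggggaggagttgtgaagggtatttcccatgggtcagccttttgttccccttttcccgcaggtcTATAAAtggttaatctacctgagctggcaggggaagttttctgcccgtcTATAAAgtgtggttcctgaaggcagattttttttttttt
Col23a1: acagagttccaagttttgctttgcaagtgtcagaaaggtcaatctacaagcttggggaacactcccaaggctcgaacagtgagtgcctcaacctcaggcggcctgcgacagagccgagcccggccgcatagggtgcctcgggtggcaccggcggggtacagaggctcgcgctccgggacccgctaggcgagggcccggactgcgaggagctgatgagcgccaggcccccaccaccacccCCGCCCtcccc
Col6a3: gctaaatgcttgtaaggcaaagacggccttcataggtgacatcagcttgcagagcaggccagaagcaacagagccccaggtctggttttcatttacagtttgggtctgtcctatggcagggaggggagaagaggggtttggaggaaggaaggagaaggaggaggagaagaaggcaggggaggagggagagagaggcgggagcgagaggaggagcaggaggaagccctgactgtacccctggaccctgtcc

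The 4 windows had no motif in common. Col13a1 held 1 TATAAA, which began 237 bases before the RefSeq start, Col17a1 held 2, at 140 and 91 bases, Col23a1 held 1 GGGCGG on the opposite strand, at 11 bases, and Col6a3 held none of the 4 motifs. GC content was 68.8%, 45.5%, 66.0% and 57.2% in that order. Over the 38 RefSeq windows of 250 upstream bases that 35 of the 44 collagen genes have, TATAAA was found in 13.2%, against 12.4% of all 32851 windows, CCAAT in 34.2% against 33.8%, TGANTCA in 2.63% against 6.75% and GGGCGG in 57.9% against 32.7%. These shares count the full windows, and that of Col17a1 holds 1 CCAAT that the shorter stretch shown does not. The median GC content of the collagen windows was 59.0% and that of all windows 52.4%. A match is a description of the letters only.

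Collagen VI, the beaded-filament collagen, rose in its 3 main chains, which form 1 trimer. Col6a1 (ENSMUSG00000001119.7, chromosome 10, 76708792 to 76726168, GRCm38) stood at 203, 371, 315 and 469 CPM in CD249neg and 1294, 1781, 1838 and 2109 CPM in CD249pos libraries (log2 fold change 2.37, SE 0.26, adjusted p = 0.000129). Col6a2, which lies 85161 bases from it on the same strand, stood at 192, 291, 348 and 436 CPM and 1076, 1583, 1597 and 1687 CPM (log2 fold change 2.23, SE 0.25, adjusted p = 0.000159). Col6a3, the largest of the main chains, encoded on chromosome 1, stood at 82.2, 87.8, 103 and 122 CPM and 491, 653, 709 and 754 CPM (log2 fold change 2.72, SE 0.18, adjusted p = 6.91e-06). No CD249pos library of the 3 genes came within the CD249neg range. Within single mice the log2 ratios of CD249pos to CD249neg were 2.57, 2.89, 2.78 and 2.62 for Col6a3 in mice 2, 7, 8 and 10. Col6a4, Col6a5 and Col6a6 encode chains that can take the place of Col6a3 and lie side by side on chromosome 9. Col6a6 stood at 2.69, 5.50, 1.29 and 1.92 CPM and 2.80, 5.81, 4.07 and 1.99 CPM and did not pass (log2 fold change 0.36, SE 0.53, adjusted p = 0.646), and its estimated counts include fractions shared with Col6a5, so both are uncertain. Col6a4 and Col6a5 did not pass the filter.

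Of the 5 genes outside these classes 4 were tested and 3 rose. Col18a1 encodes a basement membrane collagen whose cleaved end is endostatin. It stood at 47.5, 78.5, 59.4 and 112 CPM and 222, 349, 241 and 349 CPM (log2 fold change 1.97, SE 0.27, adjusted p = 0.000482). Col15a1, its close relative in the same membranes, stood at 31.4, 42.7, 42.0 and 47.4 CPM and 27.5, 79.5, 69.99 and 56.0 CPM and did not pass (log2 fold change 0.51, SE 0.28, adjusted p = 0.202). The CD249pos library of mouse 2 was its lowest of all 8, and without that library it was called at 0.76 (adjusted p = 0.00745), as it was without both libraries of mouse 2 (0.66, adjusted p = 0.0114) and by the fit to mice 7 and 8 (0.85, adjusted p = 0.00875). Col28a1, a collagen known from peripheral glia, stood at 0.365, 1.09, 3.13 and 1.77 CPM and 7.77, 21.3, 14.0 and 21.2 CPM (log2 fold change 3.35, SE 0.58, adjusted p = 0.00193), and gave 3.95 without both libraries of mouse 8. Glial markers were near 0 in both fractions, with sums of 7.85 CPM or less, and 0 of 2 tested passed. Col7a1, the anchoring fibril collagen, stood at 0.0332, 1.23, 3.25 and 1.38 CPM and 10.7, 11.8, 10.0 and 19.2 CPM (log2 fold change 3.14, SE 0.77, adjusted p = 0.0118). It passed the filter through its CD249pos libraries, with CD249neg counts of 1, 35, 78 and 46 in mice 2, 7, 8 and 10. Without the CD249neg library of mouse 8 it gave 3.87, without both libraries of mouse 8 3.97, and it was no longer called with mouse 7 or mouse 10 left out (3.11 and 2.86, adjusted p = 0.0673 and 0.0734). Col7a1 was called with mouse as a block (3.58, adjusted p = 0.00581).

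The 10 genes that did not pass the filter were Col11a1, Col10a1, Col9a1, Col9a2, Col19a1, Col22a1, Col25a1, Col6a4, Col6a5 and Col26a1. Their highest single value was 4.39 CPM, for Col22a1, a collagen of tissue junctions. Col22a1 had 0, 0, 0 and 1 counts in the CD249neg libraries of mice 8, 7, 10 and 2, and 62, 0, 124 and 54 counts in the CD249pos libraries of mice 2, 7, 8 and 10. With no filter it was the only one of the 10 called (adjusted p = 0.0080), and the size of its difference rests on a CD249neg level near 0.

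Collagen genes together took 0.732, 1.15, 0.944 and 1.45% of the counts of CD249neg libraries of mice 2, 7, 8 and 10 and 1.79, 2.68, 2.79 and 2.75% of those of CD249pos libraries. That is 1.07% ± 0.307 and 2.50% ± 0.476 (SD, n = 4), without overlap. Col1a1, Col1a2 and Col3a1 alone made up 48.5% to 67.1% of the collagen counts of a library. Divided by the length of the merged exons of each gene, the highest mean levels in CD249neg cells were those of Col3a1 (325 CPM per kb), Col1a1 (206), Col4a1 (193), Col1a2 (144), Col4a2 (125) and Col6a1 (77.5). In CD249pos cells the order was Col3a1 (936 CPM per kb), Col1a1 (529), Col6a1 (401), Col1a2 (347), Col4a1 (181) and Col6a2 (178). Col13a1 went from rank 20 to rank 9 among the 44 genes. The ranges of neighbours in both orders overlapped over the 4 libraries, except that every CD249pos value of Col1a2 lay above those of Col4a1. These ranges include the spread between mice. Within single libraries the log2 ratio of Col3a1 to Col1a1, not divided by length, was 1.15 to 1.65. With the longest transcript as the length, Col1a2 stood above Col1a1 in both fractions, at 336 and 807 CPM per kb against 228 and 586.

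The make-up of the collagen RNA differed too. Within the collagen counts per kb of a library, collagen VI took 9.92% ± 1.11 in CD249neg and 20.1% ± 0.998 in CD249pos cells (SD, n = 4). Transmembrane collagens took 0.574% ± 0.0362 and 3.63% ± 0.962, and network collagens 28.1% ± 9.23 and 10.9% ± 2.79. None of these 3 classes overlapped between the fractions. Fibrillar collagens took 56.5% ± 8.79 and 60.7% ± 4.42 and FACITs 3.46% ± 0.314 and 2.98% ± 0.380, with overlap. The network share was highest in mouse 2 in both fractions, at 41.0% and 15.1%. Shares of a whole are tied to each other: without Col4a1 and Col4a2, a setting chosen after the data were seen, the fibrillar share was 77.4% ± 2.53 in CD249neg and 67.2% ± 3.02 in CD249pos cells, the beaded share 13.7% ± 1.33 and 22.3% ± 1.61, and the transmembrane share 0.804% ± 0.166 and 4.05% ± 1.21 (SD, n = 4). The mean shares of collagen VI and of the transmembrane collagens were higher in CD249pos cells with and without those 2 genes, while the direction of the fibrillar share turned.

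**Figure D4:**
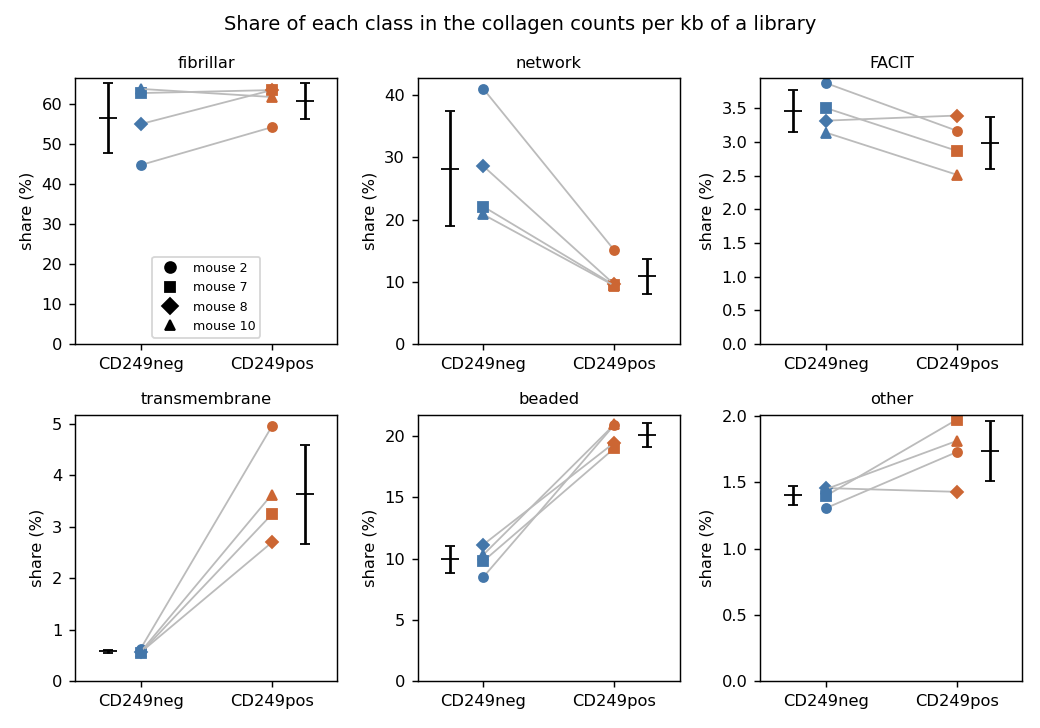
Percent of the collagen counts per kb of each library that falls to each class, in the CD249neg and CD249pos fraction of each mouse joined by a line, with the mean and SD (n = 4) beside them. The beaded and transmembrane shares are higher in CD249pos cells of all 4 mice and the network share is lower in all 4.

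Partner chains were compared through their ratio. The log2 ratio of 2 chains was taken within each library after adding 0.5 CPM, and 14 pairs were compared. The ratio of Col4a2 to Col4a1 had means of -0.80 and -0.80 in the 2 fractions (exact permutation p = 0.943, adjusted p = 0.943), that of Col1a2 to Col1a1 differed by -0.08 (exact permutation p = 0.143, adjusted p = 0.250) and that of Col6a2 to Col6a1 by -0.14 (exact permutation p = 0.229, adjusted p = 0.320). Col4a5 against Col4a1 went from log2 ratios of -6.41, -6.49, -5.42 and -5.61 to -3.68, -3.40, -3.42 and -3.31 in mice 2, 7, 8 and 10, a difference of 2.53 without overlap (exact permutation p = 0.0286, adjusted p = 0.20). Col6a6 against Col6a3 differed by -2.34, also without overlap (exact permutation p = 0.0286, adjusted p = 0.20). Col4a6 against Col4a5 differed by -1.19, lower in all 4 mice (exact permutation p = 0.0571, adjusted p = 0.20), and Col8a2 against Col8a1 by 1.08, higher in 3 of 4 mice (exact permutation p = 0.0571, adjusted p = 0.20). No pair passed the adjustment over the 14, and 0.0286 is the smallest p that 4 against 4 libraries can give. The ratios of Col3a1, Col5a1, Col5a2 and Col5a3 to their partners differed by -0.20 to 0.17, that of Col4a4 to Col4a3 by -0.53, that of Col4a3 to Col4a1 by -0.34 and that of Col6a3 to Col6a1 by 0.30 (lowest exact permutation p of these = 0.114).

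**Figure D5:**
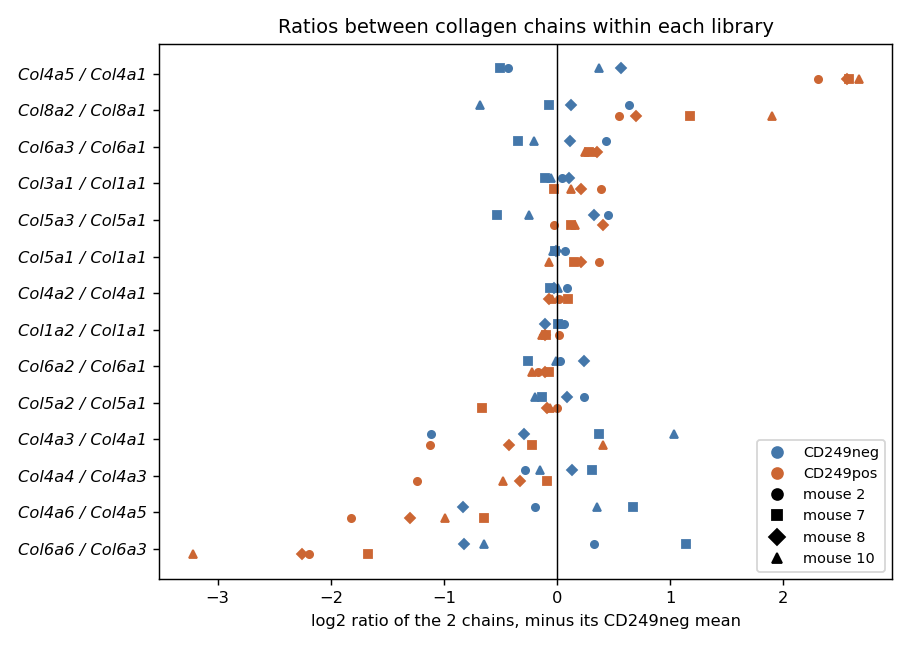
Log2 ratio of 2 collagen chains in each library, minus the CD249neg mean of that ratio, for the 14 pairs whose chains were both tested; blue is CD249neg, orange CD249pos, and the shape gives the mouse. Col4a5 over Col4a1 lies on average 2.53 above its CD249neg mean without overlap, while Col4a2 over Col4a1 overlaps between the fractions.

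The genes that make, cut, bind and crosslink collagen were taken from 5 lists with 53 genes, 49 of which were tested. Of these 31 rose and 3 fell, where 16.9% and 13.9% of all genes did, and 15 did not pass, with a median log2 fold change of 0.82, against -0.02 over all genes. The enzymes that hydroxylate procollagen had 9 of 14 higher and 5 not past the test. They include P4ha3, a prolyl 4-hydroxylase subunit (mean level 1.196 ± 0.360 CPM in CD249neg and 32.4 ± 9.26 in CD249pos libraries, SD, n = 4, and a log2 difference of 4.75), the prolyl 3-hydroxylase gene P3h3 (1.83) and the lysyl hydroxylase gene Plod2 (1.09). Among chaperone and secretion genes 9 of 11 rose, and those with the smallest p were Tmem38b, an ion channel of the endoplasmic reticulum (2.18), Creb3l1, a transcription factor for collagen secretion genes (1.81), and the coat protein gene Sec24d (1.04). All 5 lysyl oxidase genes, which crosslink collagen, rose, among them Lox (2.50), Loxl1 (2.04) and Loxl2 (1.46).

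Of 7 genes for propeptide cleavage 4 rose and 1 fell. The enhancers Pcolce2 and Pcolce rose by 2.39 and 1.80, while Tll1, a tolloid-like protease, had mean levels of 12.8 ± 1.05 CPM in CD249neg and 4.44 ± 2.49 CPM in CD249pos cells (SD over 4 libraries) and was the gene that fell (log2 fold change -1.53, SE 0.38, adjusted p = 0.0118). Of 12 collagen receptor genes 4 rose, 2 fell and 6 did not pass the test. The 1 of 7 and 2 of 12 that fell in these lists are close to the 13.9% of all genes. The endocytic receptor gene Mrc2 rose by 2.66, the discoidin receptor gene Ddr2 by 1.93 and the adhesion receptor gene Adgrg6 by 1.65. The integrin subunit genes Itga1 and Itga2 had log2 fold changes of -1.18 and -1.21 (adjusted p = 0.00142 and 0.00227). Itga1 stood at 573 ± 83.5 CPM in CD249neg and 254 ± 72.3 CPM in CD249pos cells (SD, n = 4). Endothelium also carries Itga1, and Itga2 is a platelet gene as well. Both marker lists had negative medians in the same comparison, endothelial and red cell and platelet at -1.47 and -1.75, and their part in these 2 differences was not tested.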

How the data were processed

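RNA of 8 libraries, 4 CD249pos and 4 CD249neg, was reverse transcribed from 10 ng with oligo(dT) by SMART-Seq V4, made into Nextera XT libraries and read as single 75 bp reads, per the labels' protocols. The deposited values are estimated counts per gene, not normalized. Tools listed, with no roles, in the submitters' processing notes are RSEM 1.2.28, STAR 2.6.1, bcl2fastq 2.20, R 3.6.3 and DESeq2 1.26.0, and the build listed is the human GRCh38. Since the gene identifiers are those of mouse, the build that was counted on is uncertain. Coordinates and lengths are from GENCODE M21 (GRCm38) by Ensembl identifier, which matched all 44 collagen genes, 30 with the same version. Spike-in rows (92, all 0) were left out.

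Counts were rounded, filtered by filterByExpr (14524 genes kept), scaled by TMM and tested by edgeR 4.0.16's quasi-likelihood test (R 4.3.3), two-sided. The model had a single term for the fraction, and p-values were adjusted by Benjamini-Hochberg over the whole table. SE is the log2 fold change divided by the square root of the F statistic. DESeq2 1.42.0, limma-voom (limma 3.58.1), other filters and scaling, mouse as a block, and the loss of each library and mouse were alternatives. Only the block fit had a term for mouse, so the fits that left out libraries or mice were unpaired. The fits were tested on simulated data with known fold changes. Only genes with a mean above 1 CPM were changed there, far fewer than were called in the data. Recovery in the data may therefore differ from the shares given here. The main fit recovered 53% of genes changed by 1 on the log2 scale and 86.9% of those changed by 2, with 10 false calls. With mouse as a block 44% and 83.8% were recovered, with 11 false calls. A gene that did not pass may thus still differ. No effect of mouse was simulated, so the pairing was not tested there. Ratios of chains were compared by two-sided exact permutation over libraries. Shares of collagen counts are given as values with no test. Both fractions of a lung come from 1 mouse, and over genes (no independent replicates) the libraries' deviations from their group means had correlations of 0.132 to 0.285 within mice and -0.212 to 0.0515 between mice, so mouse numbers pair the libraries.

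The members, classes and lists were chosen with earlier results of these data known. Every collagen gene is accounted for, and values per library are given for genes called with at least a 2-fold difference, genes of at least 100 CPM in a group and members of the pairs and figures described. Of other genes, the 3 with the smallest p of each list and those called lower are named, with the CD249 gene and the gate genes. The library kit marks no strand, and amplified reads are not independent molecules. Triple-helix sequence features were planned and are not analysed here.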

Additional observations from a re-analysis of the deposited data

Results flagged for a closer look

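In groups of 4 libraries, 110 sets of values (CPM of each tested collagen gene, the shares and the chain ratios, in each fraction) were searched for a single library far from the other 3, a test that chance meets in about 1 of 20 sets. Of the 110 sets 6 stood out, a share close to that 1 of 20, and 4 of them are the CD249pos library of mouse 2. The 4 are not separate, since the counts of Col1a1 and Col6a2 enter both shares flagged for that library. In that library Col1a1 stood at 1931 CPM, against 3809 to 4133 CPM in the other 3 CD249pos libraries, and Col6a2 at 1076 CPM, against 1583 to 1687 CPM. All collagen genes together took 1.79% of its counts, against 2.68% to 2.79%, and network collagens took 15.1% of its collagen counts per kb, against 9.39% to 9.60%. The same library had the highest endothelial marker sum of its group, 8047 CPM against 4284 to 4745 CPM. Its Col13a1 level of 313 CPM lay within the range of the others, 216 to 320 CPM. The CD249neg library of mouse 2 likewise had the highest endothelial marker sum of its group, 17894 CPM against 13646 to 14496 CPM. It also had the lowest collagen share, 0.732% against 0.944% to 1.45%, and the highest network share, 41.0% against 20.8% to 28.6%. The part of endothelial cells in these values was not tested. Without the CD249pos library of mouse 2 the collagen share differed by 1.67 percentage points between the fractions, against 1.43 with it. The other sets were Col24a1 at 0.598 CPM in the CD249neg library of mouse 2, against 0 to 0.0350 CPM, and the log2 ratio of Col5a2 to Col5a1 at -1.25 in the CD249pos library of mouse 7, against -0.68 to -0.59.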

How the results depend on the processing

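Each result was recomputed with DESeq2, limma-voom, library size scaling, 2 other filters, mouse as a block, the loss of each library or mouse, and 2 pairs of mice alone. All 22 genes called higher kept their direction in every setting they could be fitted in, 16 were called in all settings other than the fits to 2 mice, and 7 in every setting (Col27a1, Col4a5, Col16a1, Col13a1, Col17a1, Col23a1 and Col6a3). Collagen genes called higher numbered 17 to 23, and those called lower 0 to 0, when a library or mouse was left out. Over all genes, calls were 1777 to 2479 higher and 1201 to 1979 lower in those settings, and the biosynthesis lists gave 23 to 31 higher and 2 to 4 lower. Mice 2 and 10 alone gave 7 collagen genes higher, 570 genes higher and 98 lower of all, and 8 higher and 0 lower in the lists, and mice 7 and 8 alone gave 1251 genes lower. The replicate block, which pairs fractions by mouse, gave 1 collagen gene lower (Col4a4), and it changed no other collagen call except that of Col12a1. Sign flips over the 4 mice, the paired test of shares and chain ratios, cannot give a p below 0.125. Directions turned for Col2a1 by limma-voom (-0.22), for Col4a1 in mice 7 and 8 alone (0.012), for Col4a2 in those mice (0.069) and without the CD249neg library of mouse 2 (0.002, in a range from -0.172 over all libraries and mice left out), and for Col20a1 by limma-voom (0.185), with the block (0.094), in mice 2 and 10 alone (0.90), and without some libraries or mice (-0.569 to 0.49 over all). Without Col1a1, Col1a2 and Col3a1 the collagen share differed by 0.457 percentage points. The beaded share differed by 8.32 points per kb of the longest transcript, 7.75 not divided by length and 8.60 without Col4a1 and Col4a2, and the transmembrane share by 1.89 not divided by length. Without Col4a1 and Col4a2 the fibrillar share differed by -10.2, the network share by -0.0554, the FACIT share by -1.54 and the share of other collagens by -0.0175 points. The cause of these changes, where the smaller number of samples or genes does not show it, was not tested. Counts of 1 equal 0.0300 to 0.0417 CPM, so fold changes of genes near that level are imprecise.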
